A study of Mus musculus with 4 samples.

Results

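The unfolded protein response genes described here are 30 genes picked by symbol, and all 30 were found among the 24322 gene symbols of the files. They were divided by role into 15 chaperones and folding enzymes of the endoplasmic reticulum (ER), 5 sensors and transcription factors, 6 PERK/ATF4 targets and phosphatase subunits, and 4 genes of ER-associated degradation. mTFP-positive cells were isolated by flow cytometry from retinas at P14, after tamoxifen at P4, and profiled by RNA-seq. The labels give 129S6 as their background. All mice carried *Rlbp1-CreERT2*, in which a promoter fragment of the Müller glial gene *Rlbp1* drives a Cre recombinase that tamoxifen activates, together with *R26-CAG-LoxP-mTFP1*, a reporter that Cre switches on. The 2 control libraries, numbered 7984 and 3911, came from mice with 1 floxed and 1 wild-type *Rax* allele (*Raxflox/WT*), so controls could also lose 1 copy of *Rax*. The 2 *Rax* iCKO libraries, numbered 7983 and 3914, came from mice with both alleles floxed (*Raxflox/flox*). The study describes the libraries of a group as biological replicates. The study also saw Cre activity of this driver in the retinal pigment epithelium.

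The unfolded protein response adjusts the folding capacity of the ER to its load of new secreted and membrane proteins. Its membrane sensors are IRE1, PERK and ATF6. IRE1 (encoded by *Ern1*) splices the mRNA of *Xbp1*, PERK (*Eif2ak3*) phosphorylates the translation factor eIF2α and so favors translation of *Atf4*, and ATF6 is cleaved to release a transcription factor. XBP1 and ATF6 drive ER chaperone and degradation genes, and ATF4 drives a separate set that includes *Chac1*, *Trib3*, *Sesn2* and *Asns*. Müller glia span the retina and secrete and display many glycoproteins, which pass through the ER. Splicing, cleavage, phosphorylation and translation leave no mark in the gene-level values used here, so only the amounts of RNA are described.

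The promoters of the members were searched for known stress elements, and 13 members held at least 1 match. Of the 30 members, 26 had a RefSeq promoter of GRCm38.p6, from 250 bases before to 50 bases after a start site. *Ppp1r15b*, *Atf6*, *Hyou1* and *Manf* had none in the table used. The ER stress response element (ERSE), searched as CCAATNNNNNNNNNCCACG on both strands, was found in 8 of the 26 member promoters, against 39 of all 32851 promoters (0.119%). Of these 8, 7 belonged to chaperones (*Hspa5*, *Calr*, *Hsp90b1*, *Canx*, *Pdia6*, *Dnajc3* and *Creld2*) and 1 to the degradation gene *Syvn1*. *Hsp90b1* held 2 matches. The related ERSE-II, searched as ATTGGNCCACG, was found in *Herpud1* and *Dnajb11* and in 12 of all promoters (0.0365%). The core of the element that ATF4 binds (CARE), searched as TGATGNAA, was found in *Chac1*, *Trib3*, *Asns* and *Herpud1* and in 3.97% of all promoters. The XBP1 element TGACGTGG was found in 0 of the 26 and in 0.676% of all promoters. The letters TAATT, named by the study as a predicted Rax site, were found in 3 of the 26, *Asns*, *Ppp1r15a* and *Sel1l*, against 27.0% of all promoters. A match is a string of letters and not a measured binding site, and the window leaves out more distant elements.

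A selection of 8 stretches that hold a match is written 5′ to 3′ on the strand of the gene, with the matched element in capitals. *Hspa5*, *Calr* and *Pdia6* have an ERSE and had lower values in *Rax* iCKO without overlap, whereas *Canx* and *Dnajc3* have one and overlapped. *Hsp90b1* and *Creld2*, not in this selection, also have one and overlapped. Of all genes with a mean of at least 1 FPKM, 14.1% were lower without overlap. A link between the motif and the values was not tested. *Herpud1* shows the ERSE-II, and *Chac1* and *Asns* show the CARE. In *Calr* and *Chac1* the element lies on the opposite strand, so that its letters read as the reverse complement. The stretches lie at chr2:34772013-34772055 (plus strand) for *Hspa5*, chr8:84847063-84847105 (minus) for *Calr*, chr12:17266479-17266521 (plus) for *Pdia6*, chr11:50325788-50325830 (minus) for *Canx*, chr14:118937815-118937857 (plus) for *Dnajc3*, chr8:94386365-94386399 (plus) for *Herpud1*, chr2:119351037-119351068 (plus) for *Chac1* and chr6:7693213-7693244 (minus) for *Asns*, all in GRCm38.p6 and all upstream of the annotated start.
Hspa5: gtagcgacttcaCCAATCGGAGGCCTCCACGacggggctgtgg
Calr: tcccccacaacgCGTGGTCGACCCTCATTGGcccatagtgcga
Pdia6: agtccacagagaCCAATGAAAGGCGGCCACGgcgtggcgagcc
Canx: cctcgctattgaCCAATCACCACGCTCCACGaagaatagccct
Dnajc3: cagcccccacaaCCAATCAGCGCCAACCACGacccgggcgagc
Herpud1: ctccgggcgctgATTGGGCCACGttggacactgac
Chac1: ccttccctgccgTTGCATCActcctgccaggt
Asns: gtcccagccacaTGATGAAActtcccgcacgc

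**Figure D1:**
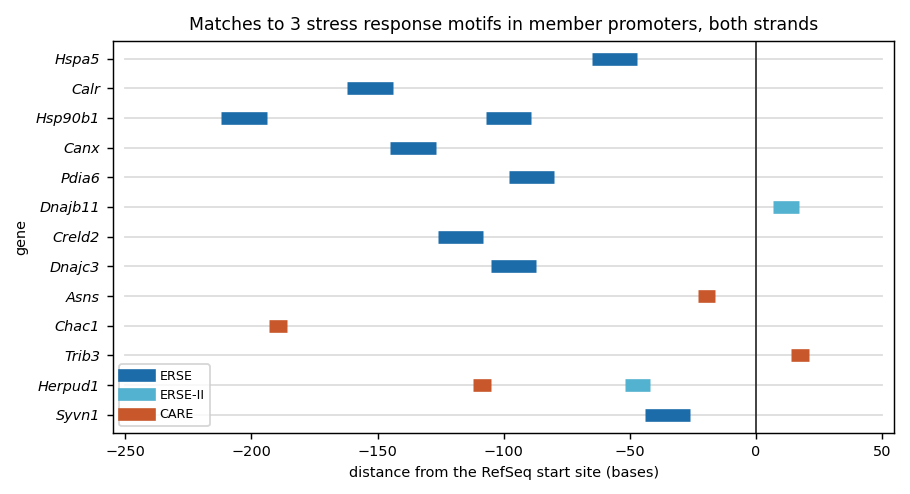
Position of matches to ERSE, ERSE-II and CARE in the promoters of the 13 members that hold one, with the distance from the RefSeq start site in bases on the horizontal axis, 1 gene per line and colored blocks spanning each match. All ERSE matches lie upstream of the start, the one of *Hspa5* from -65 to -47, and the matches of *Dnajb11* and *Trib3* lie just after it.

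The libraries held about 9280000 to 12590000 mapped reads, as estimated from the steps of low FPKM values. *Rax* had control values of 189 and 181 FPKM and *Rax* iCKO values of 111 and 98.4 FPKM, a ratio of means of 0.566. Its log2 difference of -0.82 (standard error 0.21) had an adjusted p of 0.9999 in limma. A two-sided exact permutation test gave p = 0.3333, the smallest p that 2 against 2 libraries allow. The sorted cells expressed all 10 markers of Müller glia. Of these, *Rlbp1* was lower in *Rax* iCKO without overlap, with a ratio of means of 0.597. Its values were 2616 (7984) and 2159 FPKM (3911) for control, 1292 (7983) and 1560 FPKM (3914) for *Rax* iCKO. The *Rlbp1* log2 difference of -0.74 (standard error 0.39) had an adjusted p of 0.9999 in limma. The sorted cells also held RNA of other retinal cells. The summed FPKM of 6 bipolar cell markers was 2848 and 7646 in control libraries 7984 and 3911 and 3880 and 6219 in *Rax* iCKO libraries 7983 and 3914, carried by *Pcp2*, and it moved with the run of library numbers. Of the 6, *Trpm1* (178 and 213 FPKM against 293 and 327 FPKM), *Grm6* (160 and 156 against 233 and 166) and *Prkca* (39.9 and 47.6 against 59.3 and 55.6) were higher in *Rax* iCKO without overlap, and the other 3 overlapped. Summed FPKM did not overlap between genotypes for the 10 Müller glial markers (11167 to 14800 in control, 10085 to 10157 in *Rax* iCKO), for 9 rod markers (1347 to 1370 against 794 to 916) and for 8 pigment epithelium markers (239 to 267 against 167 to 179). Taken singly, 3 of the 10 Müller glial markers and 8 of the 9 rod markers lay below both controls, with 0 above. Of the pigment epithelium markers 2 lay below and 1 above. Among all genes with a mean of at least 1 FPKM, 14.1% lay below both controls and 15.4% above. Of those at or above 100 FPKM, 22.3% lay below. The pigment epithelium sum was carried by *Rrh*, and the defining pigment epithelium gene *Rpe65* was at most 0.774 FPKM. The sums of the 6 cone markers (96.4 to 116 FPKM), 5 amacrine markers (4.47 to 10.4), 6 ganglion cell markers (6.14 to 15.1, with *Pou4f1* listed at 0 in all 4), 8 microglial markers (9.69 to 73.3) and 6 endothelial markers (244 to 490) overlapped. As single genes, 2 endothelial, 1 amacrine and 1 ganglion cell marker lay below both controls, and 0 of these types lay above. The endothelial sum was carried by *Kdr*, at 228 to 464 FPKM. *Xist* was at 24.5 and 21.2 FPKM in control but under 0.012 in *Rax* iCKO, while Y-linked *Eif2s3y* was at 43.7 FPKM in library 7983 and listed at 0 in the other 3. *Xist* thus separated the genotypes, with an adjusted p of 0.0167 in limma. A difference that goes with *Xist* cannot be told apart from one of genotype in these libraries. No member lies on the X or Y chromosome, but this does not remove the limit for members on other chromosomes. In sorted bulk cells, fewer cells of a type and less RNA per cell cannot be told apart.

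Most ER chaperones and folding enzymes were among the more abundant RNAs of these cells. *Hspa5*, which encodes the HSP70 chaperone BiP, had the highest control mean of the 30 members, 359 ± 12.2 FPKM (SD, n = 2), higher than 98.1% of the 12363 genes with a mean of at least 1 FPKM. *Calr*, encoding the lectin chaperone calreticulin, followed at 352 ± 34.3 FPKM, and these neighbors did not differ beyond their spread. *Pdia3* and *P4hb*, which encode protein disulfide isomerases, were at 247 ± 1.55 and 246 ± 26.1 FPKM and were likewise not separated. Among the chaperones the control means ran down to 14.1 ± 6.86 FPKM for *Hyou1* and 11.7 ± 0.581 FPKM for *Dnajc3*. The sensors were far less abundant, with 7.21 ± 1.495 FPKM for *Atf6*, 6.92 ± 0.363 for *Eif2ak3* and 1.16 ± 0.558 for *Ern1*. The transcription factor genes *Atf4* and *Xbp1* were at 88.1 ± 17.5 and 77.4 ± 7.59 FPKM. FPKM is scaled by gene length, so these levels can be set side by side. *Trib3*, at 0.188 ± 0.146 FPKM, was the only member below a mean of 1 FPKM, so 29 of the 30 were tested.

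**Figure D2:**
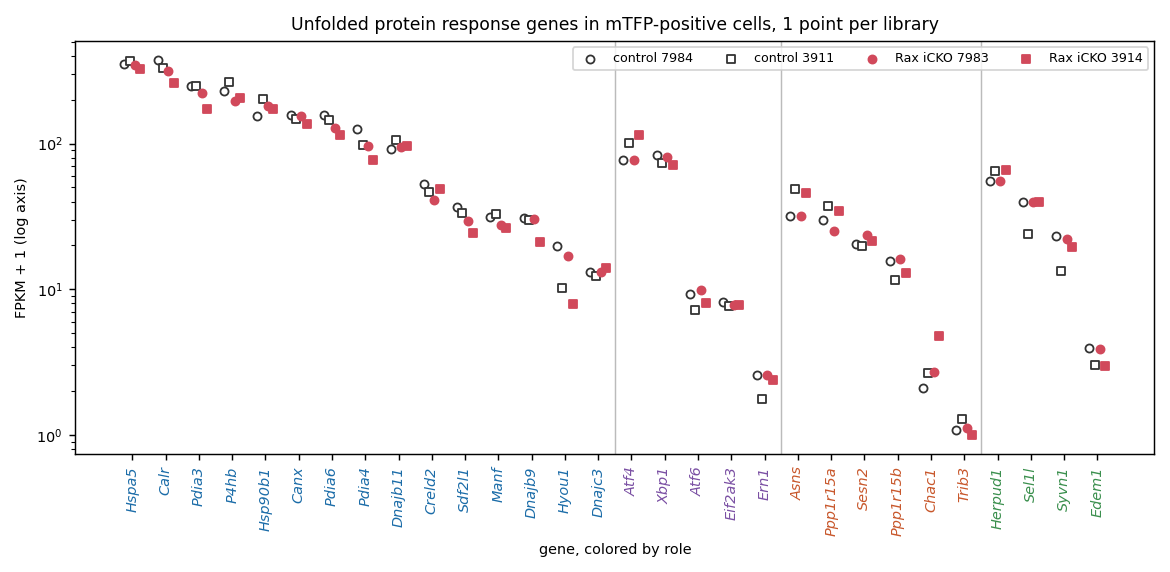
FPKM + 1 of the 30 members on a log axis, 1 point per library, with open symbols for control, filled symbols for *Rax* iCKO, circles for libraries 7984 and 7983 and squares for 3911 and 3914. Genes are ordered by control mean within their role, and the colors of the names mark chaperones (blue), sensors and factors (purple), PERK/ATF4 targets and phosphatase subunits (orange) and degradation genes (green). Levels run from *Trib3* near 0 to *Hspa5* near 350 FPKM, and the 4 libraries lie close together relative to this range.

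Whether *Rax* deficiency altered these genes was examined with limma on log2(FPKM + 1) over all 12363 genes, with Benjamini-Hochberg adjustment. None of the 29 members tested passed an adjusted p of 0.05, and each had an adjusted p of 0.9999 from limma, where 3 of all genes passed (0.0243%). At an unadjusted p under 0.05, 0 members passed, against 2.86% of all genes. With 2 libraries per group the intervals are wide. For *Hspa5* the 95% interval of the log2 difference ran from -0.69 to 0.49, and for *Atf4* from -0.60 to 0.77. When genes were counted by whether the values of the genotypes overlapped, 8 members were lower and 3 were higher, all without overlap, against 14.1% lower and 15.4% higher among all genes tested. All 8 lower members were among the 15 chaperones, and the 3 higher ones were the PERK/ATF4 targets *Chac1* and *Sesn2* and the degradation gene *Sel1l*.

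The 8 chaperones and folding enzymes below both controls were *Hspa5*, *Calr*, *Pdia3*, *Pdia4*, *Pdia6*, *P4hb*, *Sdf2l1* and *Manf*, and 0 of the 15 lay above both controls. The median log2 difference of the 15 was -0.26, with 14 of the 15 below 0, against a median of -0.00 over all genes tested, of which 50.8% were below 0 (79.2% of those at or above 100 FPKM). *Calr* had control values of 376 (7984) and 328 FPKM (3911) and *Rax* iCKO values of 314 (7983) and 261 FPKM (3914), the order kept for every gene that follows. The means were 352 ± 34.3 and 288 ± 37.3 FPKM (SD, n = 2), a ratio of 0.817, and the gap between the groups was smaller than the spread within either. *P4hb*, encoding the founding protein disulfide isomerase, had control values of 227 and 264 FPKM and *Rax* iCKO values of 195 and 204 FPKM, a ratio of 0.813. Both *Rax* iCKO values were below the lower control. *Pdia3*, encoding the isomerase that works with calreticulin and calnexin on glycoproteins, had control values of 248 and 245 FPKM and *Rax* iCKO values of 221 and 172 FPKM (log2 difference -0.34, standard error 0.24). Library 3914 was the lowest of the 4 for *Pdia3*, as it was for *Calr*. Without library 3914 the log2 difference of *Pdia3* was -0.16, and without 7983 it was -0.51. *Calr* was at -0.16 without 3914 and at -0.19 without control 7984, and *P4hb* was at -0.19 without control 3911.

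*Pdia6*, another isomerase gene, had control values of 156 and 144 FPKM and *Rax* iCKO values of 127 and 113 FPKM (log2 difference -0.32, standard error 0.21). *Pdia4* had control values of 126 and 96.7 FPKM and *Rax* iCKO values of 95.3 and 75.7 FPKM, so that control 3911 and *Rax* iCKO 7983 nearly met. Its log2 difference of -0.37 was -0.56 without control 3911, -0.18 without control 7984 and -0.21 without library 3914. *Sdf2l1*, whose product binds DnaJ co-chaperones in the ER, had control values of 35.9 and 32.2 FPKM and *Rax* iCKO values of 28.4 and 23.4 FPKM. Its log2 difference of -0.39 (standard error 0.21, 95% interval -0.91 to 0.14) was the lowest of the 29 members, and it was -0.25 without library 3914. *Manf*, which encodes an ER-resident protein that is secreted under stress, had control values of 30.3 and 32.0 FPKM and *Rax* iCKO values of 26.6 and 25.3 FPKM. Its groups were separated by more than the spread within either. *Hspa5*, the most used marker of the response, had control values of 351 and 368 FPKM and *Rax* iCKO values of 345 and 325 FPKM, a ratio of 0.933, and its separation rested on a narrow gap between libraries 7984 and 7983. Its log2 difference of -0.10 was -0.065 without control 3911 and -0.057 without library 3914. Without library 3914 the median of the 15 chaperones was -0.16.

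The other 7 chaperones overlapped between genotypes. *Hsp90b1*, encoding the ER paralog of HSP90, had control values of 153 and 201 FPKM and *Rax* iCKO values of 179 and 171 FPKM, with both *Rax* iCKO values between the controls. *Canx*, encoding calnexin, had control values of 155 and 146 FPKM and *Rax* iCKO values of 154 and 135 FPKM. *Hyou1*, an exchange factor for BiP, had control values of 18.9 and 9.21 FPKM and *Rax* iCKO values of 15.8 and 6.95 FPKM. For *Hyou1* the 2 runs of library numbers differed more than the genotypes. Of the DnaJ co-chaperone genes of BiP, *Dnajb9* had a log2 difference of -0.26, *Dnajb11* of -0.05 and *Dnajc3*, at 12.1 and 11.3 FPKM in control and 12.1 and 13.1 FPKM in *Rax* iCKO, of 0.10. *Creld2*, an ER stress-inducible folding factor, had control values of 52.1 and 45.6 FPKM and *Rax* iCKO values of 40.2 and 47.7 FPKM. Of the 7 chaperones with an ERSE, 3 lay below both controls and 4 overlapped, and of the 6 with a RefSeq promoter but no ERSE, 4 lay below both controls, where 14.1% of all genes and 22.3% of those at or above 100 FPKM did. After quantile normalization, which gives the libraries the same distribution of values, 0 of the 7 and 2 of the 6 (*P4hb* and *Sdf2l1*) lay below both controls, so the split is given as a description.

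**Figure D3:**
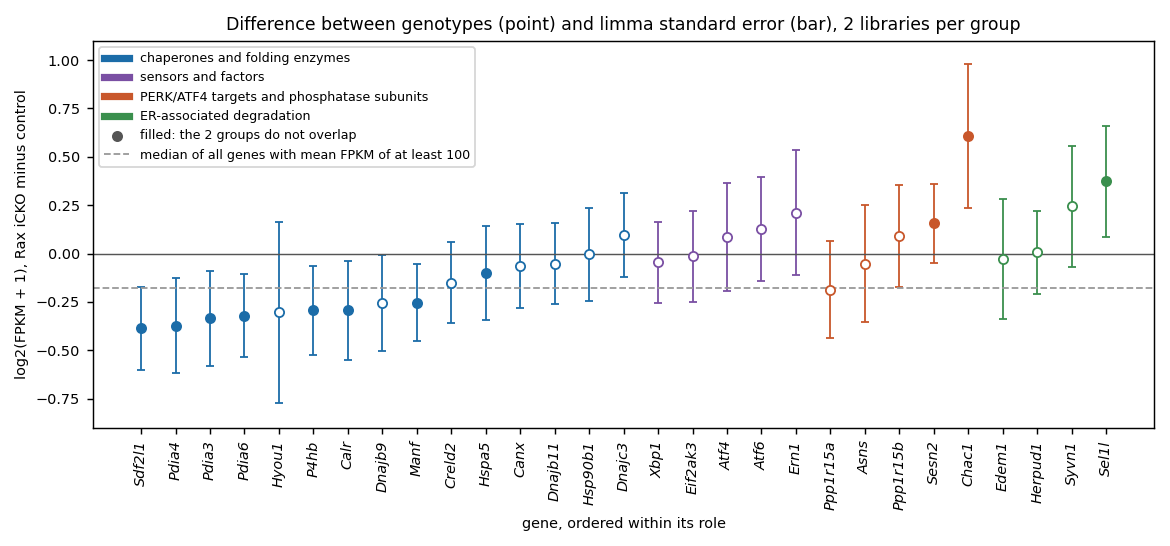
Difference in log2(FPKM + 1) between *Rax* iCKO and control for the 29 members tested, with the limma standard error as bars, ordered within role, and filled where the 2 libraries of each genotype do not overlap. The dashed line is the median of all genes with a mean of at least 100 FPKM, at -0.18. Chaperones lie between -0.39 and 0.10, and *Chac1* is highest at 0.61.

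The difference between genotypes varied with the level of a gene, and most chaperones were abundant. The part of this trend in the chaperone values was not tested. Among the 1064 genes with a mean of at least 100 FPKM the median log2 difference was -0.18 and 79.2% were below 0. It was -0.04 for the 3650 genes from 20 to under 100 FPKM and 0.04 for the 7649 genes under 20 FPKM. Of the 7 chaperones at or above 100 FPKM, 5 lay below both controls, against 22.3% of all genes in that range, and their median was -0.29. Of the 6 chaperones from 20 to under 100 FPKM, 3 lay below both controls, against 16.8% of all genes there, and their median was -0.26. After quantile normalization the median of the 15 chaperones was -0.15 and 3 of them (*P4hb*, *Sdf2l1* and *Manf*) lay below both controls, against 14.5% of all genes on that scale, while *Dnajb11* lay above both and *Hspa5* had a log2 difference of 0.066. The summed FPKM of the 15 chaperones was 2062 and 2057 in control libraries 7984 and 3911 and 1876 and 1690 in *Rax* iCKO libraries 7983 and 3914. The Müller glial, rod and pigment epithelium marker sums were also lower in both *Rax* iCKO libraries, 3 bipolar markers were higher, and their part in the chaperone values was not tested.

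**Figure D4:**
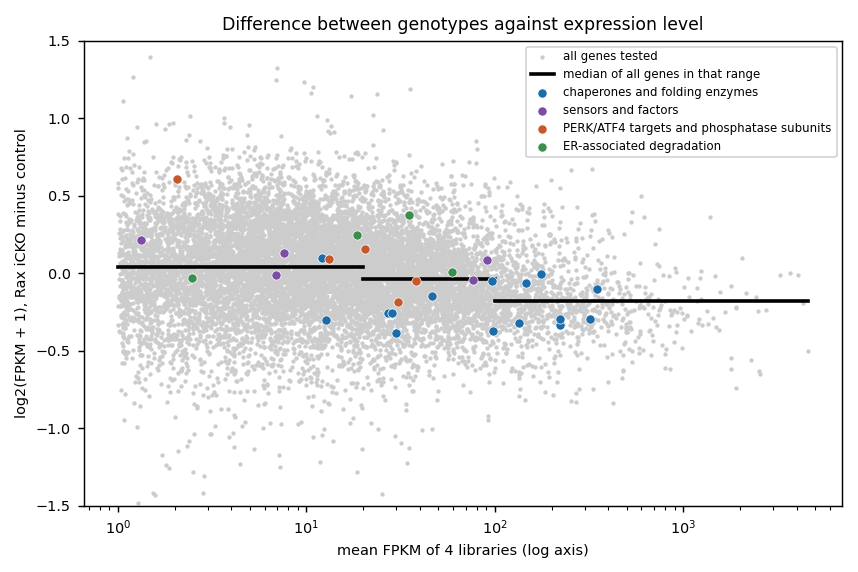
Difference in log2(FPKM + 1) between *Rax* iCKO and control against mean FPKM on a log axis, with grey points for all genes tested, black lines for the median of all genes in 3 ranges of level, and members colored by role. The median falls from 0.04 under 20 FPKM to -0.18 at 100 FPKM and above, and 11 of the 15 chaperones lie below the black line of their range. The 61 genes beyond 1.5 in either direction are not drawn.

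The sensors and transcription factors did not separate the genotypes, and all 5 overlapped. *Eif2ak3*, encoding PERK, had control values of 7.18 and 6.67 FPKM and *Rax* iCKO values of 6.85 and 6.84 FPKM. *Xbp1* had control values of 82.7 and 72.0 FPKM and *Rax* iCKO values of 79.6 and 70.2 FPKM (log2 difference -0.05, 95% interval -0.56 to 0.47). *Atf4* had control values of 75.7 and 100 FPKM and *Rax* iCKO values of 76.2 and 113 FPKM. For *Xbp1* and *Atf4* the runs of library numbers differed more than the genotypes. *Atf6* had control values of 8.27 and 6.15 FPKM and *Rax* iCKO values of 8.89 and 6.9999 FPKM. *Ern1*, encoding IRE1, had control values of 1.56 and 0.770 FPKM and *Rax* iCKO values of 1.57 and 1.36 FPKM, with control 3911 the lowest. The median log2 difference of the 5 was 0.09.

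Of the 5 tested PERK/ATF4 targets and phosphatase subunits, 2 lay above both controls, 3 overlapped and 0 lay below, where 15.4% of all genes lay above, and their median log2 difference was 0.09. After quantile normalization *Sesn2* still lay above both controls while *Chac1* and the degradation gene *Sel1l* overlapped, and the sensor gene *Ern1* lay above, against 16.0% of all genes on that scale. Whether this group differed from the chaperones was not tested. *Chac1*, encoding an enzyme that breaks down glutathione, had control values of 1.09 and 1.65 FPKM and *Rax* iCKO values of 1.70 and 3.76 FPKM, which correspond to about 19.7, 22.0, 23.0 and 50.2 reads. Its log2 difference of 0.61 (standard error 0.37, 95% interval -0.31 to 1.52) was the highest of the 29, and it rested on library 3914, since library 7983 barely exceeded control 3911. Without library 3914 the log2 difference was 0.20, and without 7983 it was 1.02. *Sesn2*, encoding the leucine sensor and stress protein sestrin 2, had control values of 19.4 and 19.0 FPKM and *Rax* iCKO values of 22.5 and 20.5 FPKM, a ratio of 1.12, and its log2 difference of 0.16 was 0.091 without library 7983. *Asns*, encoding asparagine synthetase, had control values of 30.8 and 47.6 FPKM and *Rax* iCKO values of 30.6 and 44.4 FPKM. The groups overlapped for *Asns* and the 2 libraries of a run were close. *Trib3*, encoding a pseudokinase that dampens ATF4, had control values of 0.0849 and 0.291 FPKM and was at 0.114 FPKM in library 7983 and listed at 0 in 3914, about 1.95, 4.93, 1.96 and 0 reads, and a difference was not detectable at this depth. The eIF2α phosphatase subunits showed no separation either: the inducible *Ppp1r15a* had control values of 29.0 and 36.1 FPKM and *Rax* iCKO values of 23.98 and 33.4 FPKM, and the constitutive *Ppp1r15b* had a log2 difference of 0.09.

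Among the 4 degradation genes the median log2 difference was 0.13. *Sel1l*, the adaptor of the ER ubiquitin ligase, had control values of 38.85 and 22.88 FPKM and *Rax* iCKO values of 38.91 and 38.96 FPKM. Control 3911 stood apart for *Sel1l*, while the other 3 libraries were nearly equal. Its log2 difference of 0.37 was 0.00 without that library and 0.74 without control 7984. *Syvn1*, encoding that ligase (HRD1), had the same lowest library, with 22.1 and 12.3 FPKM in control and 21.2 and 18.4 FPKM in *Rax* iCKO. *Herpud1*, a component of the ligase complex that is strongly induced by ER stress, had control values of 54.6 and 64.0 FPKM and *Rax* iCKO values of 54.5 and 64.7 FPKM, a ratio of 1.005. *Edem1*, encoding a lectin-like protein that directs misfolded glycoproteins to degradation, had control values of 2.97 and 2.02 FPKM and *Rax* iCKO values of 2.90 and 1.95 FPKM.

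Across all genes the libraries resembled each other by run of numbers more than by genotype, with a correlation of log2(FPKM + 1) across genes of 0.970 for 7984 with 7983 and 0.970 for 3911 with 3914, against 0.952 between controls and 0.955 between *Rax* iCKO libraries. What the runs stand for is not given in the labels. Each run holds 1 library of each genotype, so the difference can be read within it. Of the 15 chaperones, 11 were lower in *Rax* iCKO in both runs, against 31.7% of all genes, and 0 were higher in both. Of the 7 at or above 100 FPKM, 6 were lower in both runs, against 62.2% of all genes in that range, and of the 6 from 20 to under 100 FPKM, 4 were, against 37.2%. The 7 at or above 100 FPKM had a median difference of -0.16 for 7983 against 7984 and -0.33 for 3914 against 3911, where all genes in that range gave -0.10 and -0.24. The 6 from 20 to under 100 FPKM had medians of -0.26 and -0.34, where all genes in that range gave -0.03 and -0.04. *Sdf2l1* was lower by -0.33 and -0.44 and *Pdia4* by -0.40 and -0.35 in the respective runs, whereas *Hspa5* was at -0.02 and -0.18. *Chac1* was at 0.37 and 0.84, and the difference of *Sel1l* came from the run of 3911 and 3914 (0.00 and 0.74).

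**Figure D5:**
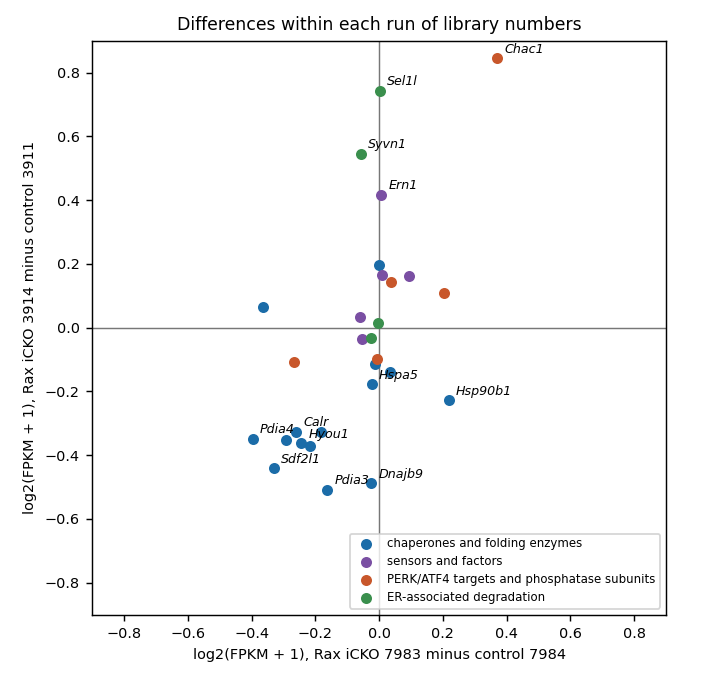
Difference in log2(FPKM + 1) of each tested member within the run of libraries 7983 and 7984 (horizontal axis) and within the run of 3914 and 3911 (vertical axis), colored by role. 11 of the 15 chaperones lie in the lower left, lower in *Rax* iCKO in both runs, where 31.7% of all genes and 62.2% of those at or above 100 FPKM lie, and *Chac1* lies in the upper right at 0.37 and 0.84.

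The wider pathway was examined with 6 further lists of 116 genes, of which *Hm13* was not analysed here. With limma, 0 of these genes passed an adjusted p of 0.05 and 4 of the 110 tested (3.64%) had an unadjusted p under 0.05, against 2.86% of all genes. The counts of these lists stand against 14.1% of all genes below and 15.4% above both controls. Of 22 tested genes of other ER folding and quality control, 8 lay below both controls and 2 above (median log2 difference -0.12). *Pdia5*, a further isomerase gene, was lowest, with 10.8 and 8.50 FPKM in control and 4.94 and 5.80 FPKM in *Rax* iCKO (log2 difference -0.74, standard error 0.25, unadjusted p = 0.0274 in limma). *Lman1*, the cargo receptor for glycoproteins leaving the ER, was highest, with 183 and 133 FPKM in control and 278 and 202 FPKM in *Rax* iCKO. Of 24 genes of translocation, signal peptide cleavage and glycosylation, 7 lay below both controls and 0 above (median -0.19). Of these 24, 13 were at or above 100 FPKM, where 5 lay below both controls (median -0.27), against 22.3% and a median of -0.18 for all genes in that range. The separated genes ran from *Stt3a*, a catalytic subunit of oligosaccharyltransferase, at -0.42 to *Ssr3* at -0.18. Of 18 other degradation genes, 2 lay below and 4 above (median 0.05), and among the separated genes *Derl1* was lowest at -0.23 and *Edem3* highest at 0.34.

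Of 31 tested genes of the ATF4 and integrated stress response outside the members, 7 lay below both controls and 6 above, with a median log2 difference of -0.09. *Cebpb*, encoding a transcription factor that pairs with ATF4, was lowest at -0.88, and *Vldlr*, a lipoprotein receptor gene, was highest at 0.38. Both differences were larger in the run of 3914 and 3911 than in that of 7983 and 7984. They were -1.31 against -0.45 for *Cebpb* and 0.55 against 0.21 for *Vldlr*. Of the 5 other eIF2α kinase and eIF2 genes, *Eif2ak2* alone was separated, at 1.39 and 1.46 FPKM in control and 2.36 and 1.61 FPKM in *Rax* iCKO. The 10 other transducers and proteases of the response all overlapped, with a median of -0.03.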

How the data were processed

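mTFP-positive cells of 2 control and 2 *Rax* iCKO libraries were analysed, grouped by the genotype in the labels. Using TopHat, Bowtie2 and SAMtools, the authors aligned single-end reads of 101 bases to the mm10 genome. The deposited FPKM hold 1 value per gene symbol and library. For the FPKM the paper names Cufflinks, whereas the submitters' processing notes name Cuffdiff. The versions of the alignment tools in the paper and in those notes differ, so none is given. The annotation, and whether reads were counted by strand, are not given in the sources used here. *Hsp90b1* shares 10.3% of its exon bases in GENCODE M21 with another gene of the files, and *Syvn1*, *Pdia6*, *Pdia3*, *Pdia4*, *Dnajb9*, *Ppp1r15a* and *Manf* share under 2% each, so their split of reads is uncertain. FPKM set each library to its own total, so abundant genes shift the rest.

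FPKM were used as deposited. The deposited files hold no counts. Mapped reads were estimated from whole-read steps of low values over genes with 1 GENCODE transcript, with 200 bases taken off its length, and no count test was run. The genotype test was that of limma 3.58.1 (R 4.3.3, with a variance trend) on log2(FPKM + 1), keeping 12363 genes whose mean reached 1 FPKM. A fold change on this scale understates low genes. Exact permutation tests used scipy 1.17.1. Promoters were from RefSeq GRCm38.p6. The steps were tested on simulated data. Alternatives used a pseudocount of 0.1, dropped the filter or raised it to 5 FPKM, scaled libraries by quantiles or to equal medians, removed the variance trend, blocked by run of library numbers, left out each library, and applied the study's rule of a 2-fold ratio with an unadjusted p. The comparison by range of level and the overlap counts under other scalings, with their shares over all genes, were added after seeing the data. The members and lists were chosen with earlier results of these data known. Genes named outside the members are *Rax*, *Rlbp1*, markers, and the highest and lowest gene of each list among those whose groups did not overlap. *Xist*, *Eif2s3y*, *Pcp2*, *Trpm1*, *Grm6*, *Prkca*, *Rrh*, *Kdr* and the genes of the last section were chosen after their values were seen.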

Additional observations from a re-analysis of the deposited data

How the results depend on the processing

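No member passed an adjusted p of 0.05 in limma under any of the 11 alternative fits, nor by the study's 2-fold rule, and 0 of the wider genes passed in those fits. The median log2 difference of the chaperones was -0.15 after quantile normalization and 3 chaperones then lay below both controls instead of 8. With equal medians 10 did, against 15.2% of all genes. Without 1 library at a time the chaperone median ran from -0.29 (without *Rax* iCKO 7983) to -0.16 (without *Rax* iCKO 3914) and 9 to 12 chaperones lay below the remaining controls, where 29.1% to 35.3% of all genes did, since 3 libraries separate more easily than 4. The median of the PERK/ATF4 targets and phosphatase subunits stayed between 0.02 and 0.20. In the main fit this median was the value of the constitutive subunit gene *Ppp1r15b* (0.09). With the run of library numbers as a replicate block, 71 of all genes (0.574%) passed and 1938 (15.7%) had an unadjusted p under 0.05, among them *Pdia3*, *Pdia4*, *Pdia6*, *Sdf2l1* and *Chac1*; the lowest adjusted p of a member was 0.199. *Rax* kept its log2 difference of -0.82 and then passed (adjusted p = 0.0223). Deviations from the group means correlated within a run (r = 0.503 over 12363 genes), but the labels do not pair the libraries. The direction of small differences depended on the setting. Quantile normalization turned *Hspa5* to 0.066, *Hsp90b1* to 0.15, *Canx* to 0.072, *Dnajb11* to 0.059 and *Xbp1* to 0.042, and equal medians turned *Herpud1* to -0.016. Leaving out each library in turn changed the sign of 16 members, all of which overlapped, with log2 differences of -0.20 to 0.19 for *Hsp90b1*, -0.84 to 0.24 for *Hyou1*, -0.16 to 0.032 for *Canx*, -0.52 to 0.0032 for *Dnajb9*, -0.16 to 0.054 for *Dnajb11*, -0.054 to 0.48 for *Ern1*, -0.060 to 0.034 for *Eif2ak3*, -0.059 to 0.31 for *Atf6*, -0.14 to 0.053 for *Xbp1*, -0.19 to 0.37 for *Atf4*, -0.42 to 0.044 for *Ppp1r15a*, -0.13 to 0.31 for *Ppp1r15b*, -0.36 to 0.25 for *Asns*, -0.12 to 0.13 for *Herpud1*, -0.16 to 0.64 for *Syvn1* and -0.23 to 0.17 for *Edem1*. With 1 library left in a group, its spread was taken from the other group.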

Other observations

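Of the 31 tested genes of the ATF4 and integrated stress response list, 7 lay below and 6 above both controls, against 14.1% and 15.4% of all genes, and the median log2 difference was -0.09. The genes named here were picked after their values were seen, so they carry no test, and *Psat1*, *Psph*, *Phgdh* and *Shmt2* were among the 7. *Psat1*, encoding phosphoserine aminotransferase, had control values of 137 and 107 FPKM and *Rax* iCKO values of 84.1 and 84.5 FPKM. *Psph*, encoding the phosphatase of the last step of serine synthesis, had control values of 70.8 and 94.6 FPKM and *Rax* iCKO values of 53.3 and 56.8 FPKM (log2 difference -0.56). For *Psph* the difference was -0.40 in the run of 7983 and 7984 and -0.73 in the run of 3914 and 3911. *Phgdh*, encoding the first enzyme of that synthesis, had a log2 difference of -0.38, which was -0.71 in the run of 7983 and 7984 and -0.05 in the run of 3914 and 3911, and *Shmt2*, encoding the mitochondrial enzyme that turns serine into glycine, of -0.45. The Müller glial marker sum was also lower in both *Rax* iCKO libraries, and its part in these values was not tested. The mitochondrial folate enzyme genes *Mthfd2* and *Aldh1l2* of the same list overlapped between genotypes, at -0.11 and 0.20.

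*Ddit3*, encoding CHOP, the transcription factor induced downstream of PERK and ATF4, was also chosen after its values were seen. It had control values of 46.8 and 56.3 FPKM and *Rax* iCKO values of 55.7 and 69.1 FPKM, which overlapped, with a log2 difference of 0.27 (standard error 0.22, 95% interval -0.28 to 0.82). The difference was 0.24 in the run of 7983 and 7984 and 0.29 in the run of 3914 and 3911. Of the 31 tested genes of its list, 9 were higher in *Rax* iCKO in both runs and 14 were lower in both.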
